A study of Mus musculus with 18 samples.

Results

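The nuclear-encoded subunits of the respiratory chain and of ATP synthase were followed across 6 groups of cultured mouse cells. Members were the protein-coding rows of the deposited count table whose symbols follow the Nduf, Sdh, Uqcr, Cox or Atp5 subunit series. This gave 85 of 29112 rows, with 38 for complex I, 4 for complex II, 8 for complex III, 17 for complex IV and 18 for complex V. Another 9 rows carried such symbols without being protein-coding and were left out. Complex numbers follow the symbols, so Ndufa4 is counted under complex I although it is known as a complex IV subunit. After a filter on low counts 83 members were tested. Cox4i2 and Cox6b2, both tissue-restricted complex IV isoforms, were removed by it.

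The cells are labelled HL-1, an immortalised line of mouse atrial cardiomyocytes, and each group had 3 libraries. A first pair of groups was kept in high glucose and received the miR-200a-3p mimic or its mimic control, a second pair in high glucose received the miR-200a-3p inhibitor or its inhibitor control, and the remaining pair was high glucose alone and the vehicle group. All groups but the vehicle group therefore share high glucose. Oligonucleotides were delivered with the HiPerFect reagent and the transfected cells were harvested 48 hours later. The labels name 1 line and do not say that replicates came from separate cultures, so p-values measure the spread between these libraries. The glucose concentration, and whether untransfected cells received the reagent, are not given in the sources used here, and miR-200a-3p itself was not measured in these libraries.

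Complexes I and II pass electrons from NADH and succinate to ubiquinone, complex III hands them to cytochrome c, and complex IV passes them to oxygen. Complexes I, III and IV pump protons, and ATP synthase, or complex V, uses the gradient to make ATP. Most subunits come from nuclear genes, and a few core subunits of every complex but complex II come from mitochondrial DNA, so that heart muscle, which relies on oxidative phosphorylation, draws on both genomes to build the chain.

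Library totals ran from 33655916 to 37928790 reads. Some libraries and groups stand apart in ways that touch the results. In mimic replicate 2, the macrophage gene Lyz2 reached 870 CPM (reads scaled to library size by edgeR's trimmed mean method). Its level in the 17 remaining libraries was 12.7 to 18.6 CPM. The 10 listed macrophage genes took 0.123% of the reads of mimic replicate 2, against at most 0.00616% elsewhere. Fibroblast genes took 0.105% to 0.259% of reads in the 4 transfected groups, and 1.06% to 1.21% in the high glucose and vehicle groups. Of 11 cardiomyocyte markers in the table only 4 passed the filter, namely Tnnt2, Gata4, Ryr2 and Nkx2-5. The cardiac troponin Tnnt2 had 15.6 to 76.2 CPM and the transcription factor Gata4 7.98 to 14.3 CPM. Myh6, Actc1, Tnni3, Hcn4, Tbx5, Nppa and Pln did not pass, and Nppa and Pln had at most 1 read in any library. Most of these markers therefore do not bear out the label, and the identity of the cells was not tested.

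The miRNA under study is shown first because the comparisons rest on it. Its mature sequence from RefSeq (GRCm38.p6, chr4:156054911-156054932, minus strand) is given with the seed, bases 2 to 8, in capitals, followed by the only members whose canonical 3′ UTR held the matching letters CAGTGTT (GENCODE M39 on GRCm39, match in capitals).
mmu-miR-200a-3p: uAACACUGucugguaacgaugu
Ndufa10, chr1:92362974-92362980, minus strand, exon 10 of 10: cctaatgtCAGTGTTccctaaga
Ndufb9, chr15:58813708-58813714, plus strand, exon 4 of 4: agtcacagCAGTGTTaaatgtta
Of the members tested that have an annotated 3′ UTR, 2 of 82 (2.44%) held the seed match, against 2870 of 12899 tested genes (22.2%). Members had short 3′ UTRs, with a median of 221 nt against 1348 nt over those genes, which leaves fewer positions for a match. Ndufa10, an accessory subunit of complex I, had 460.7, 383.6 and 449.6 CPM with the mimic, against 521, 450.9 and 510.4 CPM with the mimic control, and was not called (log2 fold change −0.20, adjusted p = 0.0925). Ndufb9, also of complex I, had a log2 fold change of −0.03 (adjusted p = 0.734). A sequence match is a description of these letters and says nothing of binding.

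Per library, the 85 members together took 0.948% to 0.988% of reads with the mimic, 0.992% to 0.998% with the mimic control, 0.749% to 0.760% with the inhibitor, 0.743% to 0.762% with the inhibitor control, 0.924% to 0.992% in high glucose and 0.890% to 0.954% in the vehicle group. The inhibitor and inhibitor control libraries were therefore below every other library. Complex I took 0.259% ± 0.0033 of reads with the inhibitor and 0.259% ± 0.0066 with the inhibitor control, against 0.357% ± 0.0092 with the mimic and 0.365% ± 0.0058 with the mimic control (SD, n = 3 each). Complex V took 0.293% ± 0.0019 and 0.290% ± 0.0058 in the inhibitor and inhibitor control groups, against 0.345% ± 0.0073 and 0.358% ± 0.0053 in the mimic and mimic control groups. These are shares of RNA in bulk cultures, in which fewer cells of a kind and less RNA per cell cannot be told apart.

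**Figure D1:**
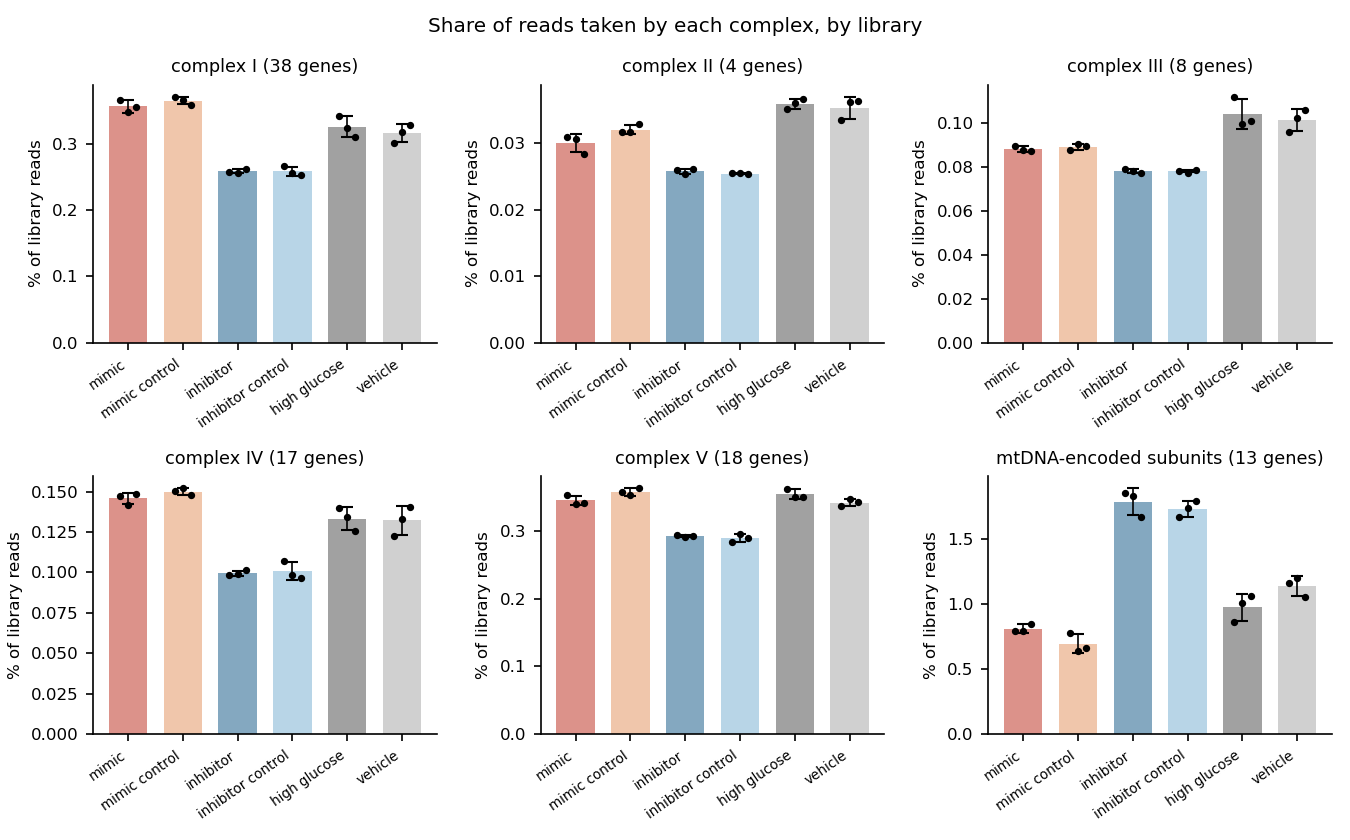
Share of library reads (percent, vertical axis from 0) taken by the members of complexes I to V in each of the 18 libraries, by group; points are libraries, bars are group means and whiskers are SD (n = 3), and a last panel gives the 13 subunits encoded by mitochondrial DNA on its own scale. The inhibitor and inhibitor control libraries lie below all other libraries in each of the complexes, with complex I at 0.259% in both.

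Levels between genes are given as the authors' FPKM, which divide by transcript length. In the vehicle group the members had a mean FPKM from 0 for Cox6b2 to 372 for Cox5b, a structural subunit of complex IV. The next highest were Atp5b, the catalytic beta subunit of ATP synthase, at 310.2 FPKM and Atp5h, a peripheral stalk subunit, at 296 FPKM. Cox5b was again the highest member with the mimic at 464 ± 18 FPKM, against 506 ± 22 with the mimic control (SD, n = 3 each). With the inhibitor Ndufa12, Atp5b and Cox5b lay close together at 271, 265 and 259 FPKM. FPKM depends on the length the authors assigned, which for 11 members, among them Cox5a and Atp5g1, was over 3 times that of the canonical transcript.

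The mimic was compared with its control to ask what added miR-200a-3p does in high glucose. Of the 83 members 27 (32.5%) were lower with the mimic and 6 (7.23%) higher at an adjusted p under 0.05 in edgeR's quasi-likelihood test, where 18% of all 15074 genes tested were lower and 15.8% higher. The members' median log2 fold change was −0.10, against 0.01 over all genes. Lower calls were spread over the chain, with 13 of 38 members of complex I, 2 of 4 of complex II, 3 of 8 of complex III, 4 of 15 of complex IV and 5 of 18 of complex V. Canonical transcripts of the lower members had 46.7% (Uqcrc2) to 62.8% (Ndufa13) GC. Those of the higher members had 41.0% (Cox7b2) to 53.6% (Ndufa6). A correction for GC content and length is among the alternatives given below, but the members' split under it is not given for the mimic. The split of called members depended on scaling, with 1 higher and 32 lower under DESeq2's size factors and 7 higher and 21 lower under upper quartile scaling. The shares of all genes given above belong to the trimmed mean scaling only, and scaling moves the calls of all genes. These other splits therefore cannot be set against those shares. Without mimic replicate 2 there were 21 lower and 4 higher calls, and all 25 were among the 33. The shares of all genes above come from the fit of all 18 libraries, so this split cannot be set against them either. The nuclear RNAs Malat1, Neat1 and Xist also differed with the mimic, by 0.92 ± 0.19, 2.29 ± 0.46 and 1.10 ± 0.15, and the macrophage genes of that library were described above; the part of either was not tested.

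**Figure D2:**
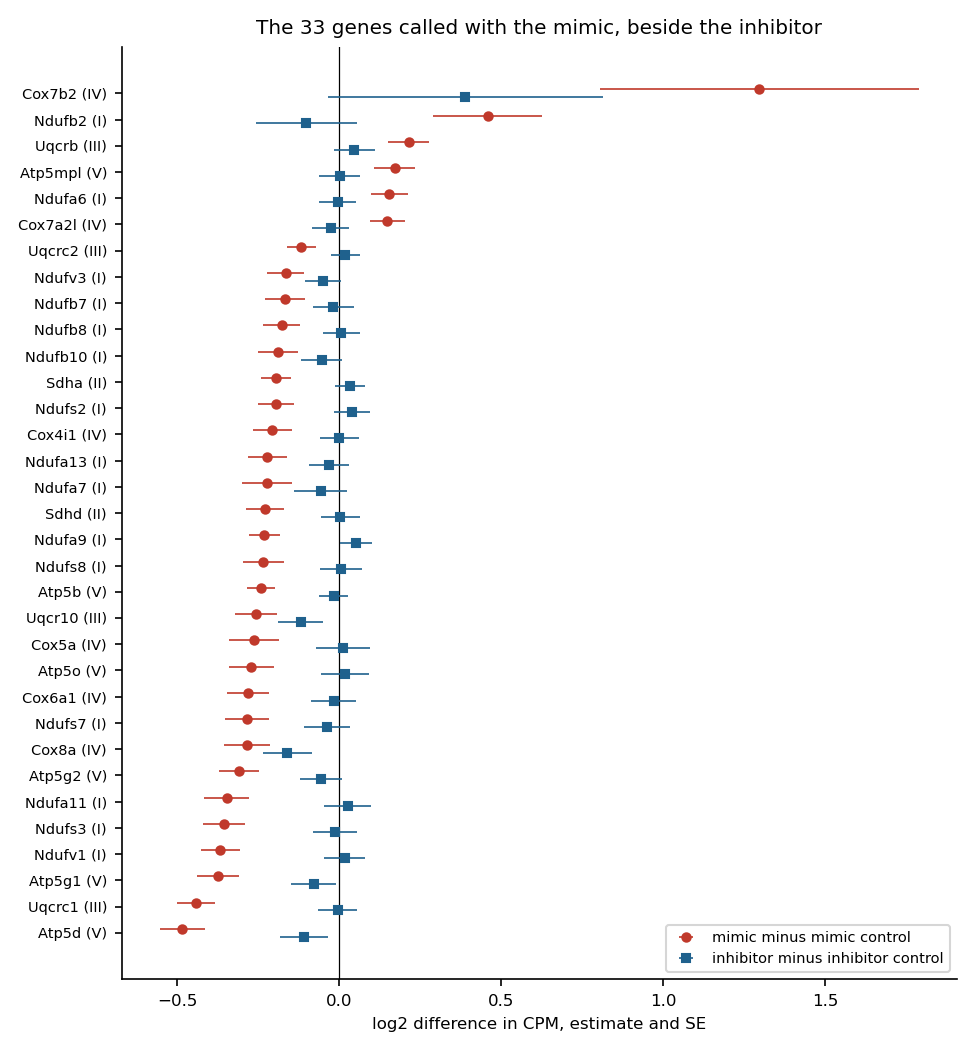
Log2 difference (estimate and SE, horizontal axis) of the 33 members called between mimic and mimic control, with the same gene's difference between inhibitor and inhibitor control beside it; complex in parentheses. Uqcrc1 lies at −0.44 with the mimic and −0.01 with the inhibitor, and Cox7b2, at 1.30, has the widest error.

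The complex I member with the lowest fold change was Ndufv1, which carries the flavin that accepts electrons from NADH (ENSMUSG00000037916.15, GRCm39 chr19:4057384-4062814). Ndufv1 had 119.8, 105 and 109 CPM with the mimic, against 140.5, 144 and 146 CPM with the mimic control. The groups did not overlap (log2 fold change −0.37 ± 0.061 SE, adjusted p = 0.000181). Ndufs3, a core subunit near the ubiquinone site, had 60.05, 53.5 and 54.6 CPM with the mimic and 74.3, 71.3 and 69.5 CPM with the control (−0.36 ± 0.065, adjusted p = 0.000458). Ndufa11, an accessory subunit of the membrane arm, had 30.4, 27.0 and 32.1 CPM with the mimic and 39.3, 38.6 and 35.9 CPM with the control (−0.35 ± 0.069, adjusted p = 0.000903). Every mimic library of these genes lay below every control library. Ndufa9, which lies near the ubiquinone site, and the iron-sulfur subunits Ndufs7 and Ndufs8 also fell, by 0.23, 0.29 and 0.23 on the log2 scale (Ndufs7 and Ndufs8 were picked out after their values were seen). Not all core subunits did: Ndufs1, the large iron-sulfur subunit next to Ndufv1, had 122, 111 and 115 CPM with the mimic and 116, 120.4 and 123 CPM with the control, and was not called (−0.04 ± 0.053, adjusted p = 0.57).

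In complex II, Sdha, the flavoprotein that oxidises succinate, had 192, 185 and 178 CPM with the mimic, against 204, 212 and 219 CPM with the mimic control. It fell by 0.20 ± 0.047 on the log2 scale (adjusted p = 0.0035), and its membrane anchor Sdhd fell by 0.23 ± 0.059 (adjusted p = 0.00573). Sdhb, the iron-sulfur subunit between them, had 52.0, 48.9 and 47.0 CPM with the mimic and 55.8, 51.9 and 53.6 CPM with the control, an overlap of 1 library, and was not called (−0.13, adjusted p = 0.0633).

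Complex III gave the called fall with the smallest adjusted p of any member. Uqcrc1, a core subunit of complex III (ENSMUSG00000025651.15, GRCm39 chr9:108765701-108778710), had 176, 167 and 171 CPM with the mimic, against 224, 235 and 239 CPM with the mimic control. The highest mimic library was below the lowest control library (−0.44 ± 0.059, adjusted p = 2.78e-05), and the value without mimic replicate 2 was −0.43. Uqcr10, a small accessory subunit, fell by 0.26 ± 0.065 (adjusted p = 0.00516). Uqcrc2, the partner core subunit, was called at −0.12 ± 0.044 (adjusted p = 0.0453), but the call ended whenever any of the 6 libraries was left out, at −0.11 to −0.14. Uqcrfs1, the Rieske iron-sulfur protein, had 50.8, 46.9 and 48.0 CPM with the mimic and 48.4, 50.4 and 51.4 CPM with the control, which overlap (−0.04, adjusted p = 0.557).

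In complex IV, Cox6a1, the widely expressed form of subunit 6a, had 26.4, 25.5 and 26.8 CPM with the mimic, against 33.3, 30.1 and 32.2 CPM with the mimic control (−0.28 ± 0.066, adjusted p = 0.00313). Cox8a fell by 0.29 ± 0.071 (adjusted p = 0.00472). Cox5a had 15.3, 15.2 and 17.9 CPM with the mimic and 20.3, 19.6 and 18.2 CPM with the control, groups that were apart by a narrow gap (−0.26 ± 0.078, adjusted p = 0.0139). Cox4i1, which with Cox5a belongs to the early assembly core, had 216, 193 and 201 CPM with the mimic and 244, 226 and 233 CPM with the control (−0.21 ± 0.059, adjusted p = 0.0111). Without mimic control replicate 1 both of these calls ended, at −0.23 for Cox5a and −0.18 for Cox4i1. Cox5b, Cox6b1 and Cox7a2 had log2 fold changes of −0.20, −0.11 and 0.10 and were not called.

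In complex V, Atp5d, the delta subunit of the rotor stalk (ENSMUSG00000003072.16, now Atp5f1d, GRCm39 chr10:79974466-79981652), had 47.9, 39.6 and 38.7 CPM with the mimic, against 62.7, 55.1 and 58.5 CPM with the mimic control. It had the lowest fold change of the called members, with no overlap between groups (−0.48 ± 0.070, adjusted p = 5.67e-05). The genes Atp5g1, Atp5g2 and Atp5g3 encode the same mature c subunit of the membrane ring with different targeting sequences. Atp5g1 had 54.6, 50.3 and 56.3 CPM with the mimic and 72.8, 68.2 and 67.9 CPM with the control (−0.37 ± 0.066, adjusted p = 0.000334), and Atp5g2 fell by 0.31 ± 0.062 (adjusted p = 0.000988). Atp5g3 had 58.7, 55.4 and 56.0 CPM with the mimic and 62.9, 66.3 and 59.8 CPM with the control, and missed the threshold (−0.15 ± 0.058, adjusted p = 0.0509). Atp5b, the most abundant member by read count, had 1538.3, 1414.1 and 1536.4 CPM with the mimic and 1768.3, 1754.0 and 1781.0 CPM with the control (−0.24 ± 0.044, adjusted p = 0.000473). Atpif1, the inhibitor protein of ATP synthase and not a member, was not called (−0.02, adjusted p = 0.794).

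The 6 rises rested on less. Ndufb2, an accessory subunit of complex I, had 51, 51 and 69 reads with the mimic, against 44, 42 and 32 reads with the mimic control (0.46 ± 0.17, adjusted p = 0.042). Cox7b2, a testis-associated isoform, had 11, 6 and 12 reads with the mimic and 5, 2 and 4 reads with the control (1.30 ± 0.49, adjusted p = 0.049), so that its level was near the floor of detection. Uqcrb, a small subunit of complex III, had 171, 162 and 167 CPM with the mimic and 138, 144 and 149 CPM with the control (0.21 ± 0.063, adjusted p = 0.0131). Its value was −0.03 when GC content and length were corrected. Ndufa6 and Atp5mpl were called at 0.15 and 0.17, and neither call held with any library left out (0.12 to 0.17 for Ndufa6, 0.13 to 0.19 for Atp5mpl). Cox7a2l, known for its part in joining complexes III and IV, was called at 0.15, and its call and that of Cox7b2 held, of the fits that left out a library, only without mimic replicate 2, at 0.18 and 1.53. Without each of the other 5 libraries they were 0.12 to 0.17 and 1.03 to 1.53. The call of Ndufb2 ended without mimic replicate 3 (0.28), mimic control replicate 1 (0.49) or mimic control replicate 3 (0.33), and that of Uqcrb without mimic replicate 1 (0.18) or mimic control replicate 1 (0.18).

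Under 17 alternatives, among them each library left out in turn, 9 of the 27 falls were called every time: Atp5b, Atp5d, Atp5g1, Atp5g2, Ndufa11, Ndufa9, Ndufs3, Ndufv1 and Uqcrc1. None of the 6 rises was. Of the 27 falls 18 held in every fit that left out a library. The 9 falls share the mimic control libraries with the comparison of that control with high glucose alone. In that comparison all 9 were called higher under all 17 alternatives, with Ndufv1 at 0.78, Atp5g1 at 1.38 and Uqcrc1 at 0.32. In high glucose alone Ndufv1 had 90.9, 85.6 and 74.7 CPM, and Uqcrc1 had 195.5, 196.5 and 168.2 CPM. The mimic was not tested against high glucose alone.

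The inhibitor was compared with its control to ask what blocking miR-200a-3p does. No member was called in either direction, as 0% of the 15074 genes were called higher and 0% lower. The members' median log2 fold change was −0.00, with a range from −0.22 to 0.46. In edgeR's test 3 of 83 members and 447 of 15074 genes had an unadjusted p under 0.05, and DESeq2 called none and gave an unadjusted p under 0.05 to 1 member and 304 genes. Those 3 members were Cox7a1, Cox8a and Atp5j, at 0.46 ± 0.20, −0.16 ± 0.075 and 0.11 ± 0.051. Uqcrc1 had a log2 fold change of −0.01, Ndufv1 of 0.02, Sdha of 0.03, Cox4i1 of −0.00 and Atp5b of −0.02 between these groups. A p that misses the threshold does not show equal levels, and the SE of these 5 values, 0.044 to 0.063, states how closely each was measured.

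**Figure D3:**
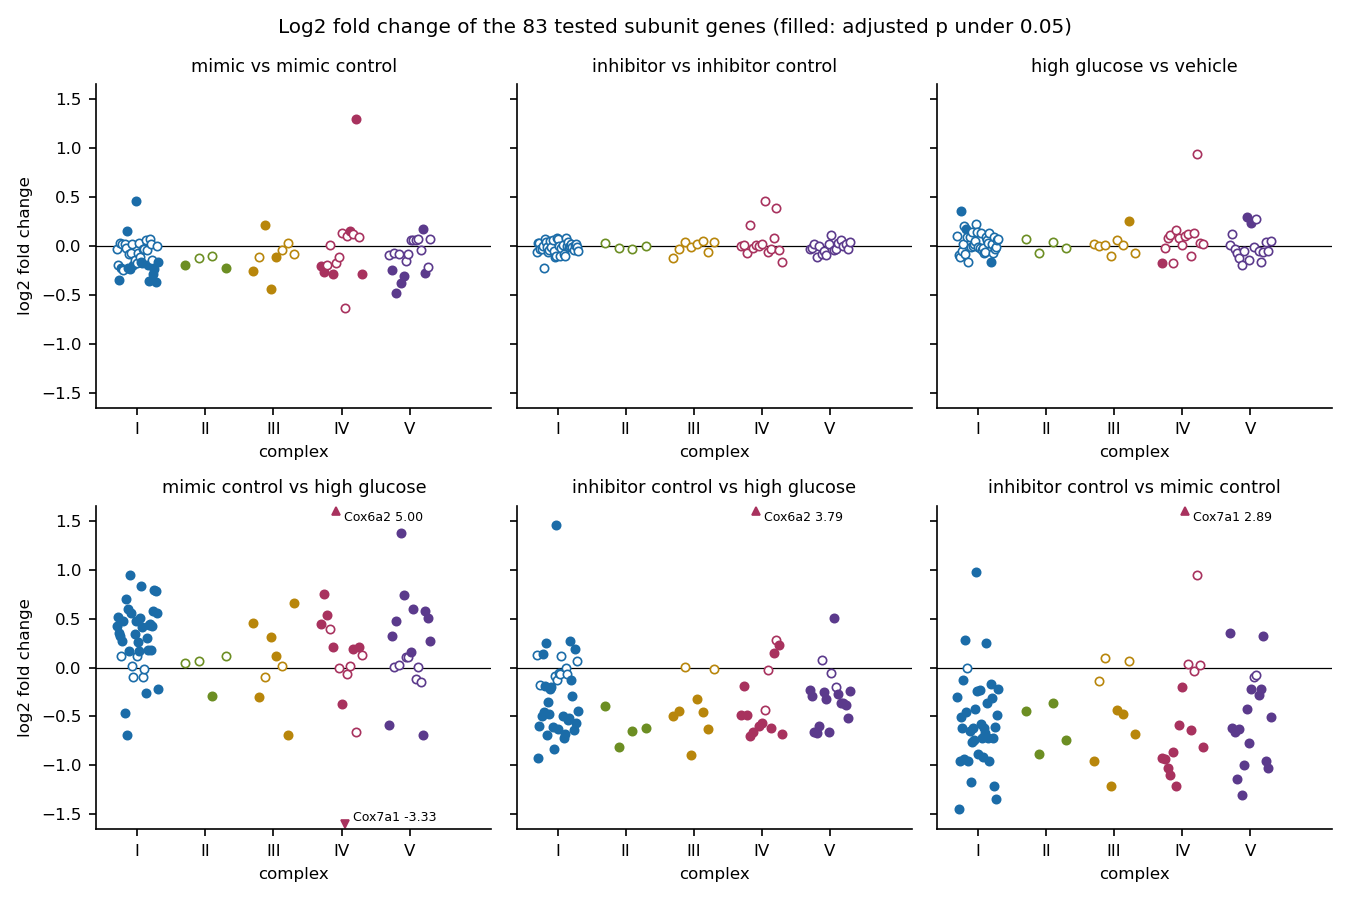
Log2 fold change (vertical axis) of the 83 tested members by complex in each of 6 comparisons, with called members filled; triangles mark values beyond the axis, which are printed. Members have a median of −0.10 with the mimic, −0.00 with the inhibitor, 0.02 in high glucose against vehicle, and −0.61 for the inhibitor control against the mimic control.

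The difference between the reagents' effects was tested itself, as the mimic's log2 fold change minus that of the inhibitor. It was called below 0 for 9 of 83 members (10.8%) and called above 0 for none, where 8.59% of all genes were called lower and 4.63% higher, so the members' share of lower calls was near the background. Uqcrc1 differed by −0.44 ± 0.085 (adjusted p = 0.00314) and Ndufv1 by −0.38 ± 0.087 (adjusted p = 0.0078), and these were called under all 23 alternatives. The other 7 were Ndufa11, Ndufa9, Ndufs3, Sdha, Atp5b, Atp5d and Atp5g1.

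High glucose alone moved few members. Against the vehicle group 5 of 83 members (6.02%) were higher and 2 (2.41%) lower, below the 12% and 12.2% of all genes, and the members' median log2 fold change was 0.02. Atp5g3, the c-ring gene, had 61.2, 56.6 and 58.2 CPM in high glucose, against 44.2, 47.1 and 52.0 CPM in the vehicle group (0.30 ± 0.058, adjusted p = 0.000848). Atp5j, a coupling factor in the stalk, had 402, 383 and 416 CPM in high glucose and 326, 367 and 330 CPM in the vehicle group (0.23 ± 0.051, adjusted p = 0.0021). Ndufa12, an accessory subunit of complex I, had 556, 485 and 453 CPM in high glucose and 334, 402 and 430 CPM in the vehicle group (0.36 ± 0.089, adjusted p = 0.00537). These 3 genes were called under all 17 alternatives. They did not overlap between groups, but that also held for Uqcrh, Ndufs4 and Cox4i1 and for Ndufs3, Cox6a1, Atp5b and Atp5k, which were not called.

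The other calls of this comparison each ended in more than 1 of the fits that left out a library, in some with the value little changed. Uqcrh, the hinge protein of complex III, was called at 0.25 ± 0.081 (adjusted p = 0.0301), and not without vehicle replicate 1 (0.20), vehicle replicate 2 (0.25) or high glucose replicate 1 (0.16). Ndufa5 was called at 0.18 ± 0.054 (adjusted p = 0.0221), and not without vehicle replicate 1 (0.13), vehicle replicate 3 (0.18) or high glucose replicate 1 (0.13). Ndufs4 was called lower at −0.16 ± 0.048 (adjusted p = 0.0183), and not without vehicle replicate 2 (−0.13) or high glucose replicate 2 (−0.14). Cox4i1 had 179, 174 and 164 CPM in high glucose and 203, 179 and 200.3 CPM in the vehicle group, with a narrow gap between them (−0.17 ± 0.059, adjusted p = 0.0385). It was no longer called without vehicle replicate 1 (−0.14), vehicle replicate 3 (−0.15), high glucose replicate 2 (−0.18) or high glucose replicate 3 (−0.13).

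The control transfections were compared with untransfected cells in high glucose, since they carry no miR-200a-3p reagent. These comparisons share the high glucose libraries with each other and with the comparison against the vehicle group, and the control libraries with the comparisons of mimic and inhibitor. With the mimic control 48 of 83 members (57.8%) were higher and 11 (13.3%) lower than in high glucose alone, against 39% and 39.9% of all genes, at a median of 0.20 against 0.01. Complex I held 28 of the 48, with 4 of its 38 members lower and a median of 0.34. With the inhibitor control 9 members (10.8%) were higher and 56 (67.5%) lower, against 40.1% and 39.3% of all genes, at a median of −0.36 against 0.04. The lower members took in all 4 of complex II, 6 of 8 of complex III and 14 of 18 of complex V.

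The first of these counts depended on the setting. With a correction for GC content and length together, the mimic control had 39 of 83 members (47%) higher and 25 (30.1%) lower, against 40.8% and 38.9% of all genes. On log2(FPKM + 1) of the authors' FPKM, where no filter was applied, limma called 31 of 85 members (36.5%) higher and 21 (24.7%) lower, against 17.5% and 25% of all genes, with a median of 0.02 over members. Transfection, its reagent, the control sequences, harvest and any batch cannot be told apart in these comparisons. The labels name no group with the reagent alone and give no harvest time for the untransfected groups. The lower fibroblast share moves with the transfected groups too, but Postn rose by 2.13 with the inhibitor control and Thy1 was called with neither control. The endothelial genes Kdr and Cdh5 were higher by 2.85 ± 0.64 and 4.25 ± 0.60 with the mimic control. With the inhibitor control they were higher by 2.98 ± 0.62 and 2.11 ± 0.77. Vwf was called with the mimic control only (2.97 ± 0.24), and Tek with neither. Genes that mark RNA composition moved as well: the nuclear RNAs Malat1, Neat1 and Xist and the ribosomal RNA Rn18s differed by 2.27, 3.76, 5.25 and −3.35 on the log2 scale for the inhibitor control against high glucose. For the mimic control against high glucose the log2 fold changes were −1.07 for Malat1, −1.89 for Neat1 and 1.94 for Xist, and Rn18s was not called (−0.02, adjusted p = 0.929). Their part was not tested.

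Set directly against each other, the 2 control transfections differed in most members. With the inhibitor control 67 of 83 members (80.7%) were lower and 6 (7.23%) higher than with the mimic control, against 35.7% and 38.5% of all genes, and the median was −0.61. The falls took in 34 of 38 members of complex I, 4 of 4 of complex II, 5 of 8 of complex III, 10 of 15 of complex IV and 14 of 18 of complex V. Uqcrc1 had 97.6 to 102 CPM with the inhibitor control and 224 to 239 CPM with the mimic control (−1.21 ± 0.061, adjusted p = 5.85e-13). Ndufv1 differed by −1.34 ± 0.062 (adjusted p = 2.03e-13), Sdhb by −0.88 ± 0.052 (adjusted p = 7.28e-12) and Atp5d by −1.14 ± 0.072 (adjusted p = 2.04e-11). With the mimic against its own control, the values of Uqcrc1, Ndufv1 and Atp5d were −0.44, −0.37 and −0.48. Both comparisons subtract the same mimic control libraries, so their values are not independent. Of the 67 falls 57 were called under all 17 alternatives, as were 4 of the 6 rises, in Atp5a1, Atp5mpl, Cox7a1 and Ndufa4. In the same comparison Malat1, Neat1 and Xist were higher by 3.34, 5.65 and 3.31 and Rn18s lower (−3.33). Of 7 fibroblast genes tested 5 were higher and 1 lower, with Col3a1 at 1.36. Of 4 endothelial genes 1 was higher and 2 lower, with Vwf at −3.14. The cardiomyocyte genes tested also split: Tnnt2 was higher (2.03), Nkx2-5 and Gata4 were lower (−2.81 and −0.63), and Ryr2 was not called (−0.49). The part of these genes was not tested.

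Within complex I, Ndufa10 had 178, 192 and 176 CPM with the inhibitor control, against 521, 450.9 and 510.4 CPM with the mimic control, and high glucose alone lay between at 314, 399 and 324 CPM. Against high glucose the inhibitor control differed by −0.92 ± 0.089 and the mimic control by 0.52 ± 0.088. Ndufa9 had 68.7, 77.0 and 73.7 CPM with the inhibitor control, 162, 163 and 169 CPM with the mimic control, and 84.1, 87.6 and 84.3 CPM in high glucose. Against high glucose Ndufa9 differed by −0.22 ± 0.049 with the inhibitor control and by 0.95 ± 0.049 with the mimic control. Ndufs1 had 88.5, 93.3 and 98.0 CPM with the inhibitor control and 95.01, 94.4 and 103 CPM in high glucose, and this pair was not called (−0.06, adjusted p = 0.283), while the mimic control was higher (0.30 ± 0.053). Some members moved alike in both transfections: Ndufa6 fell by 0.69 in each, with adjusted p = 6.65e-10 for the mimic control and 7.36e-10 for the inhibitor control. Ndufs8 and Ndufb7 rose by 0.80 and 0.83 with the mimic control, and Ndufb10 and Ndufb9 fell by 0.84 and 0.72 with the inhibitor control. Ndufb2, at 25 to 93 reads in any library, rose by 1.45 ± 0.17 with the inhibitor control. The call of Ndufc2, at −0.26 with the mimic control, ended without high glucose replicate 1 (−0.14) or any mimic control library (−0.23, −0.24 and −0.27).

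In complexes II and III, Sdhb had 31.0, 28.4 and 28.3 CPM with the inhibitor control, 55.8, 51.9 and 53.6 CPM with the mimic control and 52.8, 49.6 and 51.6 CPM in high glucose. It fell with the inhibitor control (−0.81 ± 0.052, adjusted p = 1.4e-11) and was not called with the mimic control (0.07, adjusted p = 0.237). Sdhc, the other membrane anchor, fell by 0.65 with the inhibitor control and by 0.29 with the mimic control. Uqcrfs1 had 33.9, 38.1 and 36.5 CPM with the inhibitor control, against 51.2, 47.5 and 49.9 CPM in high glucose (−0.45 ± 0.053, adjusted p = 1.38e-07). Uqcrq and Uqcr10 were higher by 0.66 and 0.46 with the mimic control, and Uqcrh was lower by 0.69 with the mimic control and by 0.62 with the inhibitor control.

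In complexes IV and V, Cox5a had 20.3, 19.6 and 18.2 CPM with the mimic control and 12.4, 10.8 and 11.5 CPM in high glucose (0.75 ± 0.080, adjusted p = 3.29e-08). Its fall with the inhibitor control (−0.19, adjusted p = 0.0428) was not called without high glucose replicate 1 (−0.14), high glucose replicate 3 (−0.20) or inhibitor control replicate 1 (−0.20), 2 (−0.17) or 3 (−0.20). Cox5b rose by 0.54 with the mimic control and fell by 0.49 with the inhibitor control. Cox5b-ps, a row the file types as protein-coding though its symbol is that of a pseudogene, can share reads with Cox5b and is uncertain. Atp5g1 had 72.8, 68.2 and 67.9 CPM with the mimic control and 29.9, 26.6 and 23.9 CPM in high glucose (1.38 ± 0.069, adjusted p = 1.8e-13), and the inhibitor control at 27.9 to 28.9 CPM was not called (0.08, adjusted p = 0.314). Atp5a1, the alpha subunit that pairs with Atp5b in the catalytic head, fell by 0.59 ± 0.047 with the mimic control and by 0.23 ± 0.047 with the inhibitor control, while Atp5b rose by 0.33 ± 0.044 with the mimic control and fell by 0.29 ± 0.044 with the inhibitor control. Atp5mpl fell by 0.69 with the mimic control and by 0.36 with the inhibitor control, and Atp5j2 rose by 0.60 with the mimic control and by 0.50 with the inhibitor control. Atpif1 was lower with the mimic control (−0.17, adjusted p = 0.0122) and with the inhibitor control (−0.32, adjusted p = 3.67e-05).

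The largest shifts were in the isoforms that heart and skeletal muscle use in complex IV. Cox6a2, the muscle form of subunit 6a (ENSMUSG00000030785.9, GRCm39 chr7:127804607-127805559), had 596, 556 and 627 reads with the mimic, 667, 573 and 662 with the mimic control, 293, 326 and 290 with the inhibitor, 312, 272 and 296 with the inhibitor control, 28, 19 and 17 in high glucose and 19, 22 and 18 in the vehicle group. Every transfected library was above every untransfected library. Against high glucose Cox6a2 rose by 5.00 ± 0.12 on the log2 scale with the mimic control (adjusted p = 1.82e-18) and by 3.79 ± 0.13 with the inhibitor control (adjusted p = 4.38e-16). It was lower with the inhibitor control than with the mimic control (−1.21 ± 0.086, adjusted p = 1.05e-10), and it was not called for the mimic against its control (−0.17, adjusted p = 0.114) or for the inhibitor. Of the reads on Cox6a1 and Cox6a2 together, Cox6a2 took 39.2% (95% exact binomial interval 36.7% to 41.7%) in mimic replicate 1 and 2.91% (1.94% to 4.18%) in high glucose replicate 1. These intervals cover counting error only.

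Cox7a1, the muscle form of subunit 7a (ENSMUSG00000074218.4, GRCm39 chr7:29883569-29885503), did not follow Cox6a2. It had 3, 2 and 3 reads with the mimic, 6, 3 and 3 with the mimic control, 40, 45 and 53 with the inhibitor, 37, 35 and 26 with the inhibitor control, 52, 38 and 44 in high glucose and 46, 41 and 41 in the vehicle group. The mimic and mimic control libraries were the low ones. Cox7a1 was called lower with the mimic control than in high glucose (adjusted p = 7.65e-10). The mimic control libraries are at or near the floor of 3 reads, so the size is given from summed reads, 12 with the mimic control and 134 in high glucose, as a ratio of 0.097 per effective library size (95% exact interval 0.0489 to 0.175, counting error only). Against high glucose the inhibitor control was not called (−0.44 ± 0.21, adjusted p = 0.0568). The inhibitor control, with 98 reads in all, was above the mimic control (adjusted p = 1.57e-08), at a ratio of 7.61 (4.16 to 15.2). Its partner Cox7a2 had 11.9 ± 0.52 CPM with the mimic, 11.0 ± 0.67 with the mimic control, 10.8 ± 0.22 with the inhibitor, 11.3 ± 1.3 with the inhibitor control, 11.5 ± 1.1 in high glucose and 10.5 ± 1.3 in the vehicle group (SD, n = 3 each), and was called in none of the 6 comparisons.

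The remaining minor isoforms were also near the floor of detection, which is 3 reads for a library that shows 0. Cox4i2, the hypoxia- and lung-associated form, had at most 5 reads in any library, against 118 to 244 CPM for Cox4i1. Cox6b2 had at most 1 read, against 26.4 to 46.0 CPM for Cox6b1. Cox7b2 had 2 to 12 reads, and Cox7b had 97.6 to 148.7 CPM.

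**Figure D4:**
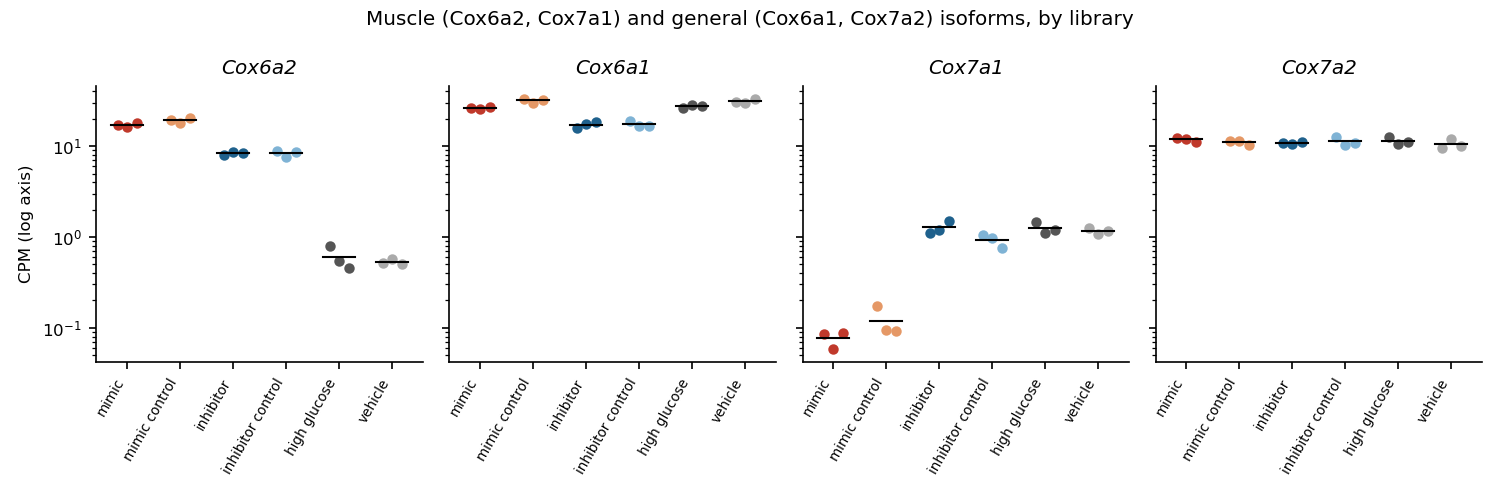
Level in CPM (log axis) of the muscle isoforms Cox6a2 and Cox7a1 beside their widely expressed partners Cox6a1 and Cox7a2 in the 6 groups; points are libraries and bars are group means. Cox6a2 averages 17.1 and 19.3 CPM with the mimic and mimic control and 0.601 and 0.536 CPM in high glucose and vehicle, and Cox7a1 is lowest with the mimic and mimic control, at 0.0769 and 0.12 CPM.

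Promoters are shown for 3 members that were lower with the mimic and hold a motif, and for the muscle isoform Cox7a1; the 3 were chosen as examples after the motifs were known. RefSeq windows (GRCm38.p6) of 300 bases, from 250 before to 50 after the gene's start, were matched to 70 of the 85 members, which are 69 symbols. Both strands were searched for the NRF1 letters GCATGCGC, the ETS-family letters CCGGAAG bound by GABP, the YY1 letters AAGATGGC and the ERR letters AAGGTCA, and matches are in capitals. Overlapping matches were counted separately, and since GCGCATGCGC reads the same on both strands it holds an overlapping pair.
Uqcrc1, chr9:108936398-108936697, plus strand: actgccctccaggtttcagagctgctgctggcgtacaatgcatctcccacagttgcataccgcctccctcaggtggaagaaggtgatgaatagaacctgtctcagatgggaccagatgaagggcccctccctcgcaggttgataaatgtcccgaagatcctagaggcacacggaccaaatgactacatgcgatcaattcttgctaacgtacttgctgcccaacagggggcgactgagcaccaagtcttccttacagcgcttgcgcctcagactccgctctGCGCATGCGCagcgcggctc
Ndufs3, chr2:90904672-90904971, minus strand: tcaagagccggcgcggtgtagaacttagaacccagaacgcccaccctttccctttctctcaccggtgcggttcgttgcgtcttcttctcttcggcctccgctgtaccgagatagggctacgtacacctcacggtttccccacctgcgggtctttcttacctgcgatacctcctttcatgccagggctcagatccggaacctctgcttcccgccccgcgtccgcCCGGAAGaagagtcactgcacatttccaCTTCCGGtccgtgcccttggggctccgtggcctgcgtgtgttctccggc
Cox6a1, chr5:115348909-115349208, minus strand: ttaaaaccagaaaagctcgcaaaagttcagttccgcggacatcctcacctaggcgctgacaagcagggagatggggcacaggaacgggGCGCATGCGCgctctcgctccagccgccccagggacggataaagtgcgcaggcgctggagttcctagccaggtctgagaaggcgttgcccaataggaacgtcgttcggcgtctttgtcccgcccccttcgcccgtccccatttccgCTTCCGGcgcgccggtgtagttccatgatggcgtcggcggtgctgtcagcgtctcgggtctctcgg
Cox7a1, chr7:30183921-30184220, plus strand: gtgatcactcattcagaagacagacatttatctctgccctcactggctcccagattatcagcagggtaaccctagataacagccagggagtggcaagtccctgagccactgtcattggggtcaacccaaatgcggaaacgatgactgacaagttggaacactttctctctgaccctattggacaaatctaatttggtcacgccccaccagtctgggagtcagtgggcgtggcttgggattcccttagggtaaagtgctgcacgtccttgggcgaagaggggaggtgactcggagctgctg
The Uqcrc1 window holds the NRF1 letters, that of Ndufs3 holds ETS letters at 2 places, that of Cox6a1 holds both kinds, and that of Cox7a1 holds none of the 4 motifs. Members that were lower with the mimic did not hold them as a rule: 12 of the 24 with a window held at least 1 motif and 12 held none, among them Ndufv1, Sdha, Atp5b, Atp5d and Atp5g1. Of the 46 remaining members with a window 23 held at least 1 and 23 none. NRF1 letters were in 10 of 69 members (14.5%), against 3.05% of 27025 gene windows, and YY1 letters also in 10 (14.5%), against 3.19%. ETS letters were in 17 (24.6%), against 9.93%, and ERR letters in 8 (11.6%), against 5.38%. Member windows had a higher GC content, at a median of 58.3% against 52.7%, which bears on such shares. No match says only that these letters are not in the window.

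Mitochondrial DNA encodes 13 further subunits, and their reads did not track the nuclear members. Reads of these 13 genes per read of the 85 nuclear members were 0.802, 0.840 and 0.885 with the mimic, 0.781, 0.646 and 0.670 with the mimic control, 2.46, 2.45 and 2.20 with the inhibitor, 2.20, 2.32 and 2.41 with the inhibitor control, 0.868, 1.07 and 1.15 in high glucose and 1.31, 1.29 and 1.11 in the vehicle group. The inhibitor and inhibitor control libraries were the high ones, as they were the low ones in nuclear members. Mitochondrial genes were higher with the inhibitor control than in high glucose in 10 of 12 tested and lower in 1, at a median of 1.11, where 40.1% of all genes were called higher and 39.3% lower. With the mimic against its control only mt-Nd5, a complex I subunit, was called (0.25 ± 0.080, adjusted p = 0.0216). In high glucose against the vehicle group 1 of 12 was higher and 5 lower, at a median of −0.30, where 12% of all genes were called higher and 12.2% lower.

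Genes that build or feed the chain were followed by lists. Their counts stand beside 18% of all genes called lower and 15.8% called higher with the mimic, and several are near or under those shares. With the mimic against its control, 2 of 17 complex I assembly factors were lower (Foxred1 and Dmac1) and none higher, none of 4 for complex II was called, 2 of 6 for complex III were lower (Uqcc1 at −0.32 and Bcs1l at −0.23), 2 of 26 for complex IV were higher and 6 lower (Cox19 at −0.38 and Cox10, which makes haem O, at −0.35), and none of 5 for complex V was called. The list of electron carriers holds 18 genes: those of coenzyme Q synthesis, the enzymes that pass electrons to coenzyme Q (Dhodh, Gpd2, Sqor and the electron transfer flavoproteins Etfa, Etfb and Etfdh), cytochrome c, and Cyc1, the cytochrome c1 of complex III. In it 2 were higher (Sqor at 0.39 and Etfa at 0.18) and 6 lower (Coq4 at −0.46, Coq6 at −0.42, Dhodh at −0.40, Gpd2 at −0.30, Cyc1 at −0.24 and Etfb at −0.22). In the tricarboxylic acid cycle, which supplies NADH and succinate, 7 of 13 were lower and 1 higher, with Ogdh at −0.42, citrate synthase Cs at −0.36 and Suclg2 at 0.32. Of 15 factors for mitochondrial transcription and biogenesis, 3 were higher (Gabpa, Mterf3 and Tfam) and 4 lower, among them the mitochondrial RNA polymerase Polrmt at −0.45 and the coactivator Pprc1 at −0.44. None of these genes was called between the inhibitor and its control.

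Between the control transfections most of these lists held more lower than higher calls, where 35.7% of all genes were lower and 38.5% higher with the inhibitor control. Assembly factors were lower in 12 of 17 for complex I, with 1 higher, in 2 of 4 for complex II, with none higher, in 4 of 6 for complex III, with 1 higher, in 14 of 26 for complex IV, with 3 higher, and in 3 of 5 for complex V, with 1 higher. Of electron carrier genes 11 of 18 were lower and 2 higher, and of tricarboxylic acid cycle genes 8 of 13 were lower and 1 higher. The 15 transcription and biogenesis factors split, with 7 lower and 6 higher (Ppargc1b, Gabpa, Ppargc1a, Tfam, Tfb2m and Mterf3). The coactivator Ppargc1a had 2.69 to 3.15 CPM with the inhibitor control, 1.40 to 2.01 CPM with the mimic control and 0.145 to 0.227 CPM in high glucose. It rose against high glucose by 3.91 ± 0.21 with the inhibitor control and by 3.10 ± 0.22 with the mimic control. Its level in high glucose is near the floor of 0.0845 to 0.0876 CPM in those libraries, so both sizes are uncertain. Esrra, a nuclear receptor that partners with Ppargc1a, fell by 0.88 with the inhibitor control and by 0.48 with the mimic control, and Nrf1 rose by 1.11 with the mimic control and was not called with the inhibitor control (0.08, adjusted p = 0.211).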

How the data were processed

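RNA-seq libraries of 150 nt paired reads were processed by the submitters with FASTX-Toolkit 0.0.13, HISAT2 and DESeq2 on GRCm39, per the submitters' processing notes. The counting program, annotation release and strand setting are not given in the sources used here, so sense and antisense reads cannot be told apart. The table of raw read counts per gene was deposited by the authors, as was a second table of FPKM, which scale reads to transcript length and library size; both hold all 18 libraries. Replicate libraries of each group differed by more than counting noise.

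All tests were fitted on the whole count table. Of all rows, 15074 genes passed edgeR's filterByExpr, run by group with a count of 10 and a total of 15. Counts were scaled by TMM and fitted with edgeR 4.0.16 in R 4.3.3 by the quasi-likelihood test, with 1 term per group over all 18 libraries (12 residual degrees of freedom), and p-values were adjusted by Benjamini-Hochberg over all genes tested. A member was called at an adjusted p under 0.05. The scripts were tested on simulated data. Depth limits precision for members of few reads: where a library has 0 reads, up to 3 could be present. Alternatives were DESeq2 1.42.0, its size factors, upper quartile scaling, no filter, a fit of only the groups compared, an offset for GC content and length, a replicate block, limma 3.58.1 on log2(FPKM + 1) or log2(FPKM + 0.1), a filter at FPKM 1 in 3 libraries, and each library left out in turn.

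Gene IDs were matched to GENCODE M39 on GRCm39 for positions, lengths and 3′ UTRs, and sequences of promoters and the miRNA come from RefSeq on GRCm38.p6. In each comparison up to 3 called members per complex and direction were named, beside Ndufs1, Ndufv1, Sdha, Sdhb, Uqcrc1, Uqcrfs1, Cox4i1, Cox5a, Atp5b, Atpif1 and the isoform sets. Members, gene lists and tests were chosen with earlier results of these data known. The rows of Atp5o, which overlap, can share reads and are uncertain.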

Additional observations from a re-analysis of the deposited data

Results flagged for a closer look

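For 9 of 83 members (10.8%) the mimic's effect against its control and the inhibitor's effect against its control differed, by the test of that difference in edgeR's quasi-likelihood fit. All 9 were called below 0, where 8.59% of all genes were called lower and 4.63% higher, so their share was near the background. They were also all called lower with the mimic, while no gene was called with the inhibitor. The mimic's log2 fold change comes first in each case, then that of the inhibitor and the difference. In complex I, Ndufv1 had −0.37 with the mimic and 0.02 with the inhibitor, a difference of −0.384 (adjusted p = 0.0078). Ndufa9 had −0.23 and 0.05, a difference of −0.283 (adjusted p = 0.0117). Ndufa11 had −0.35 and 0.03, a difference of −0.373 (adjusted p = 0.0196), and Ndufs3 had −0.36 and −0.01, a difference of −0.343 (adjusted p = 0.0217). In complex II, Sdha had −0.20 and 0.03, a difference of −0.228 (adjusted p = 0.0284). In complex III, Uqcrc1 had −0.44 and −0.01, a difference of −0.437 (adjusted p = 0.00314). In complex V, Atp5d had −0.48 and −0.11, a difference of −0.375 (adjusted p = 0.0213), Atp5b had −0.24 and −0.02, a difference of −0.224 (adjusted p = 0.0242), and Atp5g1 had −0.37 and −0.08, a difference of −0.295 (adjusted p = 0.0489). No member of complex IV was among them.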

How the results depend on the processing

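Between high glucose and vehicle, 7 calls became 11 with the GC content and length offset, with or without the replicate block, 4 in a fit of only these groups, and 11 with limma at FPKM of at least 1, and 5 to 10 with a library left out. With the mimic, 33 calls became 16 with limma on log2(FPKM + 1) and 16 on log2(FPKM + 0.1), and 21 to 30 with a library left out. The 9 differences between mimic and inhibitor effects became 16 in a fit of 4 groups, 15 with DESeq2, 2 with limma on either FPKM scale, and 5 to 12 with a library left out. The median of mimic control against high glucose, 0.20, was 0.02 with limma on either pseudocount and 0.04 with the FPKM filter. Values that changed sign with the GC content and length offset, with or without the block, were Uqcrb at −0.027 with the mimic, Cox7a2l at −0.12, Cox7b at −0.17 and Uqcrfs1 at −0.20 with the mimic control, and Cox7b at −0.53, Cox7c at −0.20 and Ndufs4 at −0.28 with the inhibitor control. With limma on log2(FPKM + 1), with or without the filter, Cox7a2l was −0.14, Sdha −0.12 and Uqcrfs1 −0.15 for the mimic control, and −0.15, −0.12 and −0.15 on log2(FPKM + 0.1). The cause was not tested. Calls were 54 to 60 for the mimic control, 61 to 64 for the inhibitor control and 71 to 73 between controls with a library left out, and 0 for the inhibitor in all settings. Replicate numbers did not pair the libraries (correlations of deviations from −0.623 to 0.331), and with the replicate block calls were 8 for high glucose, 30 for the mimic, 0 for the inhibitor, 59 for the mimic control, 65 for the inhibitor control, 72 between controls and 9 for the difference in effects. Upper quartile scaling moved the median of all genes to 0.15 between controls. Of the named members' values under alternatives, 3264 kept direction and side of the threshold, 191 lost the call, 72 gained it and 23 changed sign.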
